A study of Danio rerio with 9 samples.

Results

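The 100 most abundant mRNA transcripts of the zebrafish caudal fin are described here across intact fin and 2 stages of regeneration. They were chosen by their level: of the 55393 transcripts in the mRNA table, these have the highest mean deposited signal over all 9 libraries. Caudal fins of wild-type zebrafish were profiled intact, at 3 days after amputation (3 dpa) and at 7 days after amputation (7 dpa), with 3 libraries per group. Amputation and time were the differences the labels give between groups, and no other allele or agent is named. Total RNA was fragmented, copied from random primers and made into dUTP libraries. The number of fish behind each library is not stated in the labels, and the p-values below therefore reflect the variation among these libraries, part of which may be technical.

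After amputation, a zebrafish fin closes the wound with epidermis, builds a blastema of dividing cells beneath it, and then grows out while bone rays, vessels and skin form again. In most tissues a small set of transcripts makes up a large part of the mRNA pool, commonly those for ribosomal proteins, translation factors, cytoskeleton, mitochondrial enzymes and the proteins typical of the tissue. The share of the pool held by such transcripts follows both their own levels and those of all other transcripts. None of the 100 IDs occurs in the gene name tables used (0 of 100), so each transcript is called by its rank in the 9-library mean, no function is assigned, and the fin label was not checked against marker genes. Of the 100, 95 have an annotated transcript ID and 5 carry an ID from transcript assembly (ranks 16, 19, 45, 75 and 94).

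Signal was steeply distributed within the set. The most abundant transcript had a mean signal of 12920 over the 9 libraries, 22.6 times that of rank 100. Rank 10 had 2513 and rank 50 had 979. The set held 34.4% of the mean signal of all mRNA transcripts, the next 100 raised that share to 42.9%, and 399 transcripts were needed for 50%. Rank 100 had a mean signal of 572.0 and the first transcript outside, rank 101, had 571.1, so the boundary is not a gap in level. Whether the deposited signal is scaled per transcript length is not given, so ranks order deposited values and not molecule numbers. All 100 passed the filter on low values, and 1 of them (rank 76) was listed at 0 in a library.

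The set held a smaller share of the mRNA total at 3 dpa than in intact fin, and the 7 dpa share lay between. In intact fin libraries the share was 36.7%, 36.9% and 36.3%. At 3 dpa it was 31.5%, 32.1% and 31.1%, and at 7 dpa it was 34.8%, 34.4% and 35.4%. No library of one group overlapped another group, but these shares rest on the measure that chose the set and have no test. The group means were 36.6% ± 0.322 in the intact fins, 31.6% ± 0.544 at 3 dpa, and 34.9% ± 0.527 at 7 dpa (SD, n = 3 each). In signal units, the set summed to 158717 ± 4141 in the intact fins, 130486 ± 3234 at 3 dpa, and 146677 ± 6039 at 7 dpa. All other transcripts together summed to 274761 ± 4547 in the intact fins, 282971 ± 2698 at 3 dpa, and 273797 ± 6440 at 7 dpa (SD, n = 3 each).

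The lower share was spread unevenly over the ranks. The 10 most abundant held 13.3% ± 0.437 of the total in the intact fins, 9.34% ± 0.229 at 3 dpa, and 12.3% ± 0.593 at 7 dpa. Ranks 51 to 100 held 9.35% ± 0.324 in the intact fins, 8.64% ± 0.176 at 3 dpa, and 8.73% ± 0.340 at 7 dpa. Without rank 1, the remaining 99 held 32.9% ± 0.414 (intact fin), 29.4% ± 0.415 (3 dpa) and 31.6% ± 0.689 (7 dpa; SD, n = 3 each). The shares just below the set did not move the same way. Ranks 101 to 200 held 8.34% ± 0.234 in the intact fins, 8.52% ± 0.131 at 3 dpa, and 8.56% ± 0.157 at 7 dpa. Ranks 201 to 1000 held 15.3% ± 0.182 (intact fin), 18.2% ± 0.110 (3 dpa) and 16.8% ± 0.210 (7 dpa). All lower ranks together held 39.8% ± 0.593 (intact fin), 41.7% ± 0.542 (3 dpa) and 39.8% ± 0.481 (7 dpa; SD, n = 3 each).

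**Figure D1:**
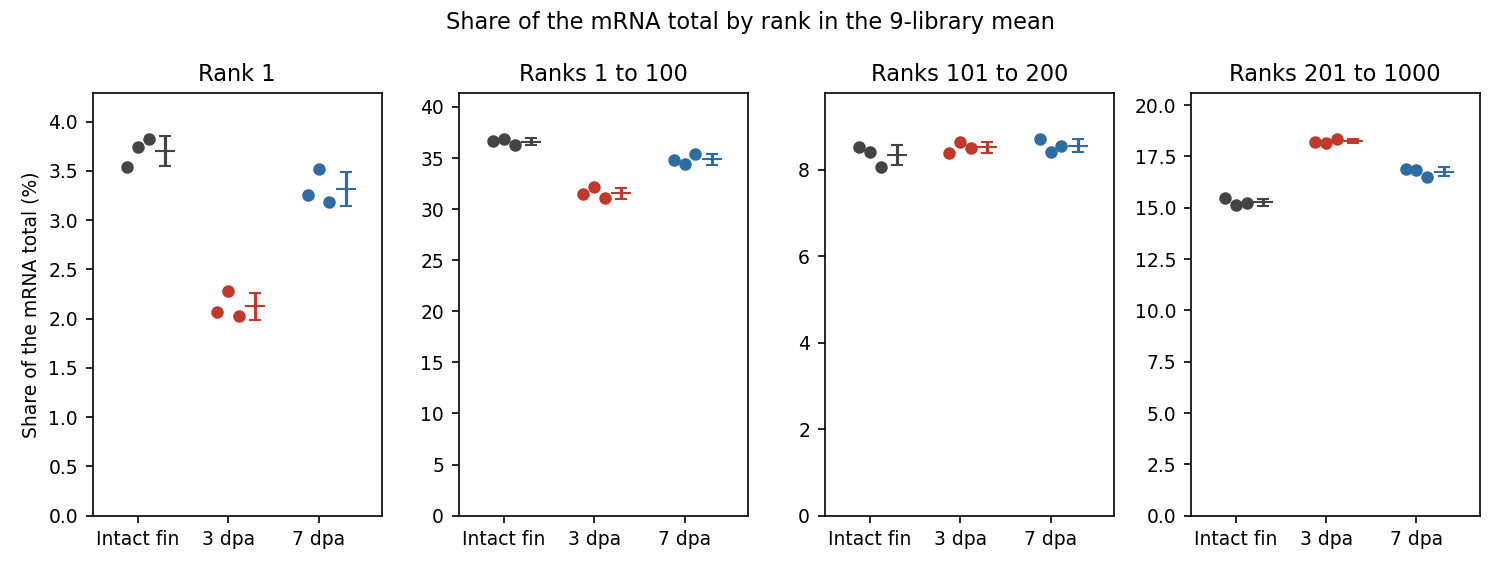
Share of the mRNA total (%, linear axes from 0) for rank 1, ranks 1 to 100, ranks 101 to 200 and ranks 201 to 1000 by group; points are libraries and bars are mean ± SD (n = 3). The 100 most abundant transcripts held 36.6% (intact fin), 31.6% (3 dpa) and 34.9% (7 dpa), while ranks 201 to 1000 held 15.3% (intact fin), 18.2% (3 dpa) and 16.8% (7 dpa).

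A few transcripts carried a large part of the change in share at 3 dpa against intact fin. The set changed by -5.05 percentage points net, with falls that summed to -8.998 points over 78 transcripts and gains that summed to 3.94 points over 22. The 5 transcripts with the largest falls held 49.5% of all falls. These were rank 1 (-1.58 points), rank 9 (-1.05), rank 7 (-0.826), rank 2 (-0.556) and rank 4 (-0.446). The 3 largest gains came from rank 6 (1.00), rank 20 (0.616) and rank 59 (0.431) and summed to 2.05 points. At 7 dpa against intact fin the net change was -1.74 points, with falls that summed to -4.225 points over 77 transcripts and gains that summed to 2.49 points over 23. Rank 9 (-0.649 points) then had the largest fall and rank 6 (0.582) the largest gain.

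**Figure D2:**
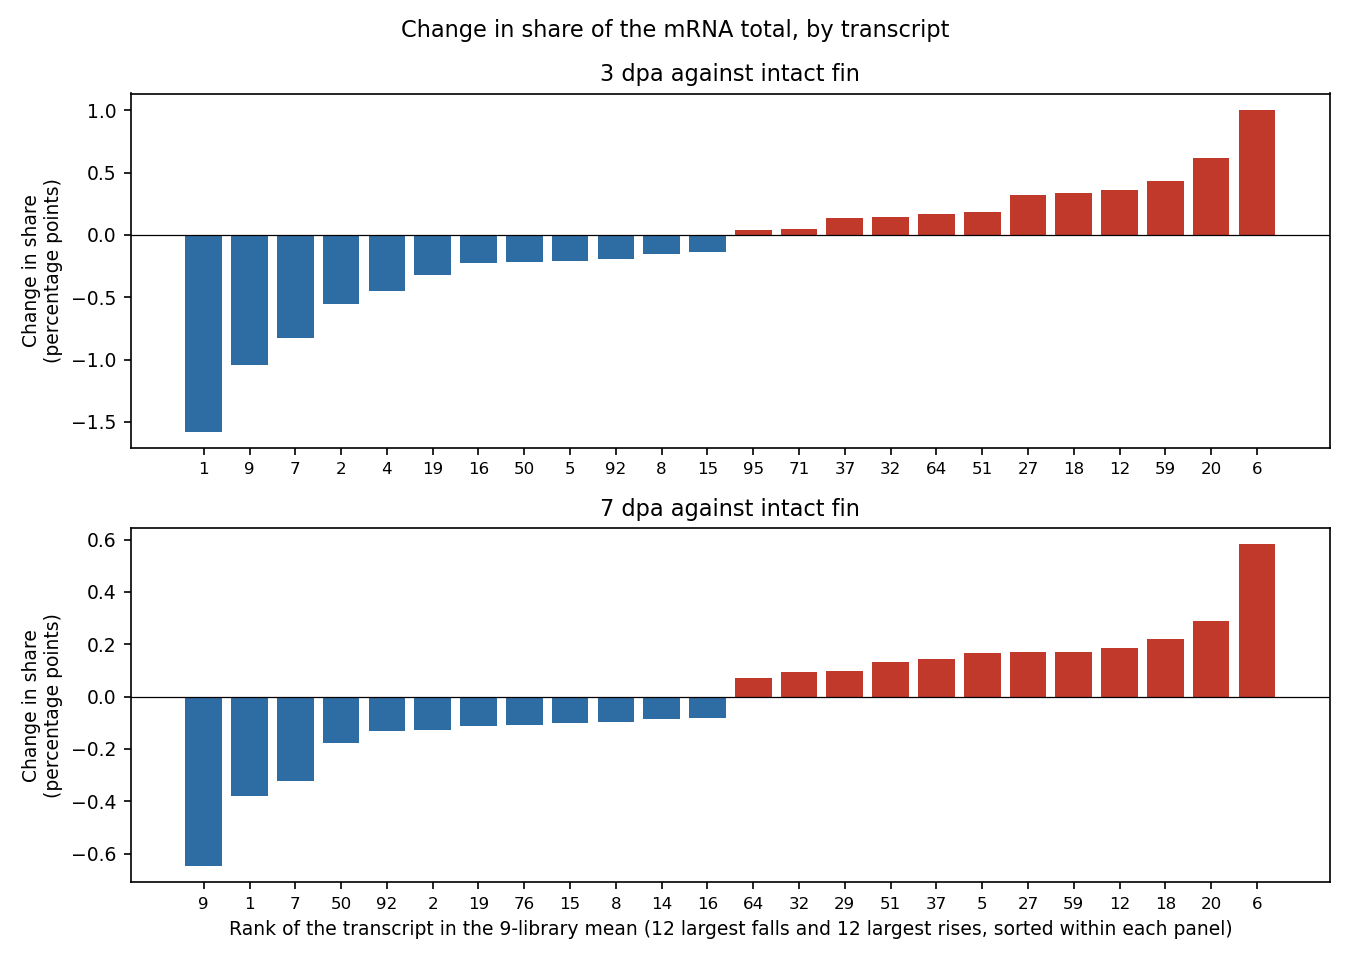
Change in share of the mRNA total (percentage points) of single transcripts at 3 dpa against intact fin (top) and 7 dpa against intact fin (bottom); bars are differences of group means, labelled by rank in the 9-library mean, for the 12 largest falls and 12 largest gains. Rank 1 (-1.58 points) fell most at 3 dpa and rank 9 (-0.649 points) at 7 dpa, and rank 6 gained most at both.

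At 3 dpa against intact fin, more of the set fell than rose, and most falls were small. With limma across 25001 transcripts and a Benjamini-Hochberg adjusted p under 0.05, 11 of the 100 were higher, 62 were lower and 27 did not pass. Among all transcripts tested, 50% were called, 22% higher and 28% lower, so the share called higher in the set was below the background and the share called lower above it. The median log2 change was -0.30 in the set and -0.09 over all tested, on the log2(signal + 1) scale. Of the 62 falls, 49 were smaller than 0.6 on the log2 scale and 6 were of 2-fold or more. The median log2 change was 1.21 among the 11 rises and -0.37 among the 62 falls. The choice by mean level bears on the size of the rises. Of the 11, 5 (ranks 20, 51, 59, 64 and 95) stood outside the top 100 of intact fin and entered the set through the regenerating groups. It bears on the falls too. Ranks 65, 75, 86, 87, 92, 93, 98 and 99, all called lower, stood outside the top 100 of 3 dpa and entered the set through the other groups. After quantile normalization, which gives every library the same distribution of values, 15 were higher and 40 lower. Of all tested, 48% were then called and 24.8% were lower. Median-ratio scaling left 14 higher and 42 lower, and an equal mRNA total left 11 and 56. Of all tested, 49.1% were called in both settings, and 22.9% and 25% were lower in that order. The set's median log2 change was -0.11 with quantile normalization, -0.17 with median-ratio scaling and -0.23 with an equal mRNA total.

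By at least 2-fold, 7 of the set were higher and 6 lower, against 8.25% and 9.12% of all tested. Transcripts nearer in level changed by 2-fold more often, with 14 higher and 14 lower among ranks 101 to 200, and 21.9% higher and 10.1% lower among ranks 201 to 1000; the differences from the set were not tested. The libraries of the 2 groups did not overlap for 11 higher and 71 lower transcripts of the set, while the same held for 59.2% of all tested, 25.9% higher and 33.3% lower. By the adjusted p alone, 50 of ranks 101 to 200 were lower and 29 higher, and among ranks 201 to 1000 28.2% were lower and 46% higher. The SE of a log2 change was smaller in the set, with a median of 0.083 against 0.162 over all tested. In these bulk samples, fewer cells of a type and less RNA per cell cannot be told apart.

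**Figure D3:**
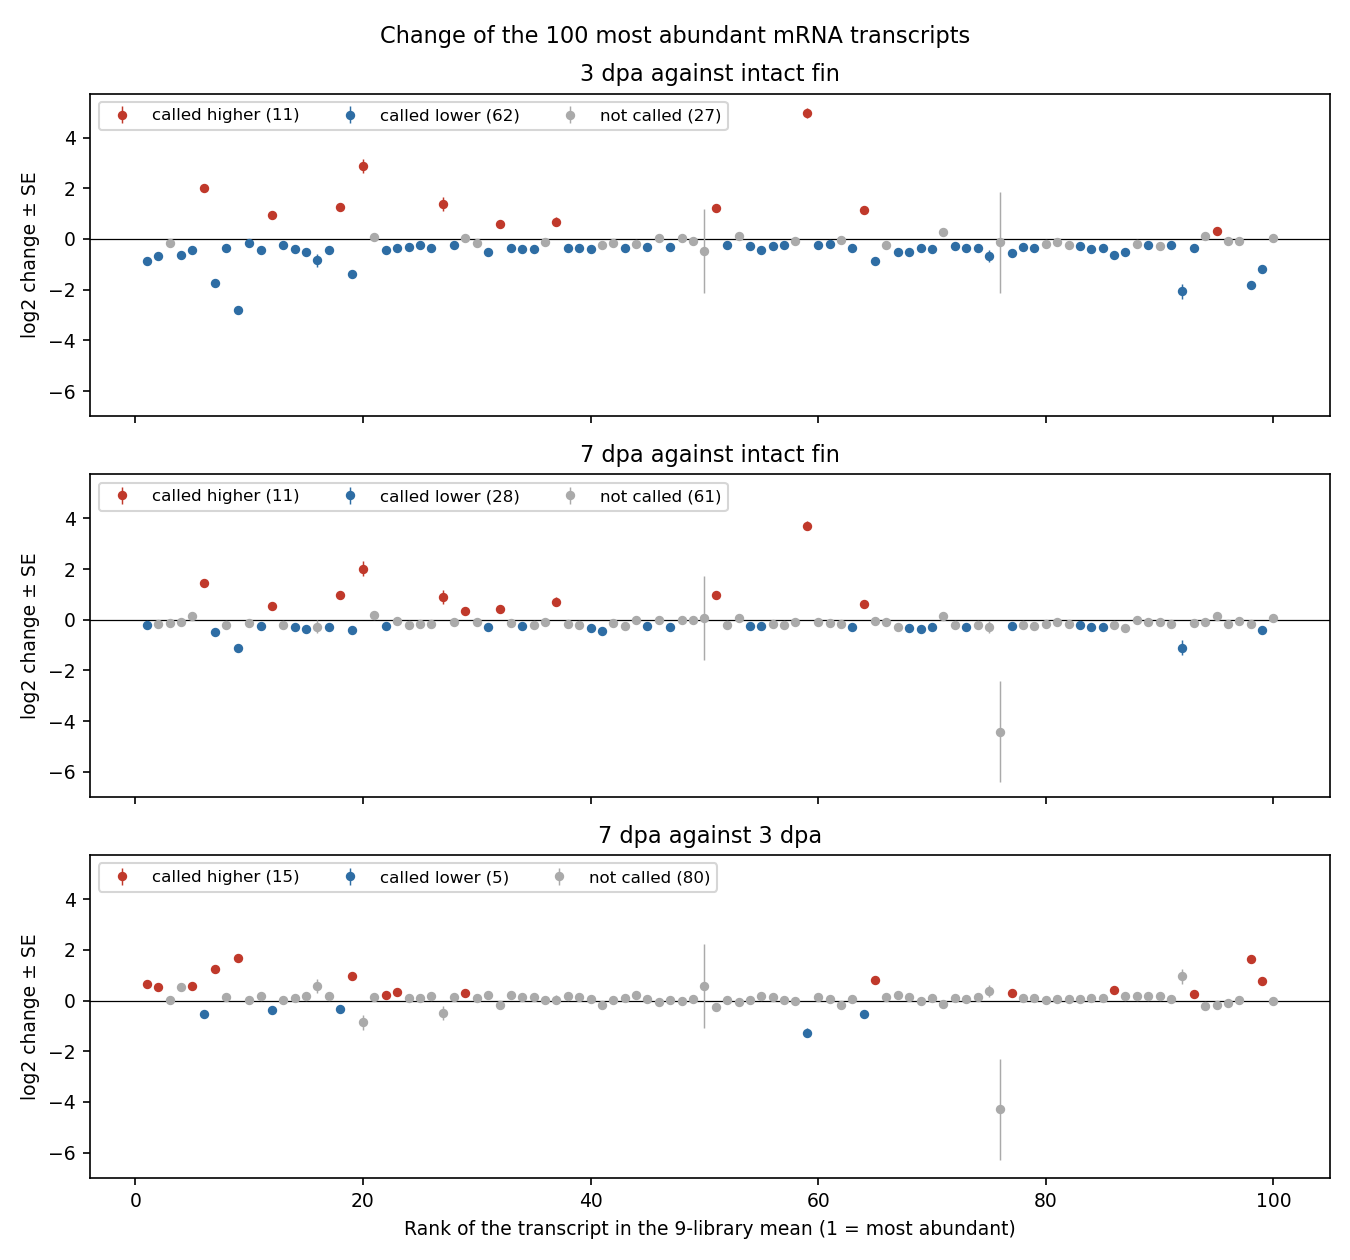
Log2 change ± SE (limma, log2(signal + 1) scale) of each of the 100 transcripts, by rank in the 9-library mean, for the 3 comparisons; colours mark adjusted p under 0.05. At 3 dpa against intact fin, 11 were higher and 62 lower; at 7 dpa against intact fin, 11 and 28; at 7 dpa against 3 dpa, 15 and 5; ranks 50 and 76 have the long error bars.

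The largest rise was that of rank 59 (ENSDART00000128618). It had a signal of 1901, 1622 and 1983 in the 3 dpa libraries, against 63.4, 69.0 and 42.9 in intact fin. Every 3 dpa library was far above every intact one, 31.4-fold by group means, with a log2 change of 4.97 ± 0.19 (SE, limma adjusted p = 4.109e-07). At 7 dpa it had 687, 934 and 686, still above all intact libraries and below all 3 dpa libraries. This was a log2 change of 3.71 ± 0.19 at 7 dpa against intact fin (SE, limma adjusted p = 1.455e-05). With a mean intact signal of 58.4 ± 13.8 (SD, n = 3), it belongs to the set only through the regenerating groups. By mean signal in each group it ranked 706 in the intact fins, 15 at 3 dpa, and 70 at 7 dpa.

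Rank 20 (ENSDART00000091021) rose next most, and with rank 127 in intact fin it too is in the set only through the regenerating groups. Its signal was 2943, 2878 and 3058 at 3 dpa, against 481, 594 and 228 in intact fin. The groups did not overlap, and intact replicate 3 was the lowest library. The log2 change was 2.88 ± 0.29 (SE, limma adjusted p = 5.478e-05), or 6.81-fold by means. At 7 dpa its libraries had 1798, 1414 and 1694, again above all intact values, with a log2 change of 2.01 ± 0.29 against intact fin (SE, limma adjusted p = 0.001642).

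Rank 6 gained the most share of the total. It had 5408, 5139 and 5859 at 3 dpa, against 1460, 1589 and 1097 in intact fin, and no library overlapped. Its share of the mRNA total was 0.318% in the intact fins, 1.32% at 3 dpa, and 0.901% at 7 dpa. The log2 change was 2.00 ± 0.12 at 3 dpa against intact fin (SE, limma adjusted p = 3.617e-06). By mean signal it ranked 33 in the intact fins, 2 at 3 dpa, and 6 at 7 dpa, so at 3 dpa only rank 1 had a higher signal.

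Ranks 18 and 27 complete the 5 largest rises. Rank 18 had 2235, 2307 and 2393 at 3 dpa, against 956, 1033 and 871 in intact fin. Its replicates lay close together, and the log2 change was 1.28 ± 0.07 (SE, limma adjusted p = 2.049e-06). Rank 27 had 2072, 2269 and 2183 at 3 dpa, against 973, 1166 and 516 in intact fin. The intact libraries of rank 27 spread more, and its log2 change of 1.38 ± 0.27 had a limma adjusted p of 0.002756. The other 6 rises were of ranks 51, 64, 12, 37, 32 and 95, from 1.21 down to 0.32 on the log2 scale. Intact replicate 3 was the lowest intact library for 9 of the 11 transcripts that rose and for 74 of all 100. The part of that library in the rises was not tested beyond leaving it out. After that, 11 of the 100 were still called higher, against 4998 of 24378 tested.

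The largest fall was that of rank 9 (ENSDART00000039267). It had 762, 884 and 631 at 3 dpa, against 5740, 4950 and 5300 in intact fin. Every intact library was above every 3 dpa library, 7.02-fold by means, with a log2 change of -2.82 ± 0.12 (SE, limma adjusted p = 7.545e-07). At 7 dpa it had 2439, 2262 and 2630, between both other groups with no overlap, and a log2 change of -1.12 ± 0.12 against intact fin (SE, limma adjusted p = 0.0003809). Its rank by mean signal was 5 in the intact fins, 68 at 3 dpa, and 9 at 7 dpa.

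Rank 92 (ENSDART00000034549) fell next most. By mean signal it ranked 42 in the intact fins, 171 at 3 dpa, and 108 at 7 dpa, so it is in the set only through intact fin. Its signal was 213, 276 and 294 at 3 dpa, against 1136, 783 and 1419 in intact fin, with no overlap. The log2 change was -2.06 ± 0.30 (SE, limma adjusted p = 0.0004816). At 7 dpa it had 805, 395 and 396, and replicate 1 of 7 dpa lay above the lowest intact library. Its log2 change at 7 dpa against intact fin was -1.11 ± 0.30 (SE, limma adjusted p = 0.02674). That call at 7 dpa was lost without intact replicate 1 or 3 or 7 dpa replicate 2 or 3, with limma adjusted p between 0.0705 and 0.08616 and log2 changes between -0.91 and -1.07. The call was also lost with no filter on low values (limma adjusted p = 0.05612) and from the 2 groups alone (0.05104).

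Ranks 98, 7 and 19 also fell by more than 2-fold. Rank 98 had 239, 286 and 181 at 3 dpa, against 819, 909 and 723 in intact fin, a log2 change of -1.81 ± 0.15 (SE, limma adjusted p = 1.982e-05). Rank 7 had 1679, 1550 and 1461 at 3 dpa, against 4968, 4590 and 6075 in intact fin, a log2 change of -1.73 ± 0.16 (SE, limma adjusted p = 3.024e-05). Neither overlapped between the groups. Rank 19, an assembled transcript, had 847, 939 and 934 at 3 dpa, against 2265, 2626 and 2163 in intact fin, a log2 change of -1.37 ± 0.11 (SE, limma adjusted p = 1.255e-05). Of the 5 assembled transcripts in the set, 4 were lower at 3 dpa and rank 94 did not pass. The test called lower 58 of the 95 annotated ones in the set and 28% of all tested. A difference between assembled and annotated transcripts was not tested. Rank 75, an assembled transcript called lower, had 607, 631 and 463 at 3 dpa, against 949, 1235 and 605 in intact fin, with overlap. Libraries did not overlap for 72 of the 73 transcripts of the set called in this comparison, and for 59.2% of all tested, called or not. Calls and overlap rest on the same values, so this count is no further support for the calls. Rank 99, the sixth fall of at least 2-fold, had a log2 change of -1.17 ± 0.08 (SE, limma adjusted p = 8.297e-06).

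**Figure D4:**
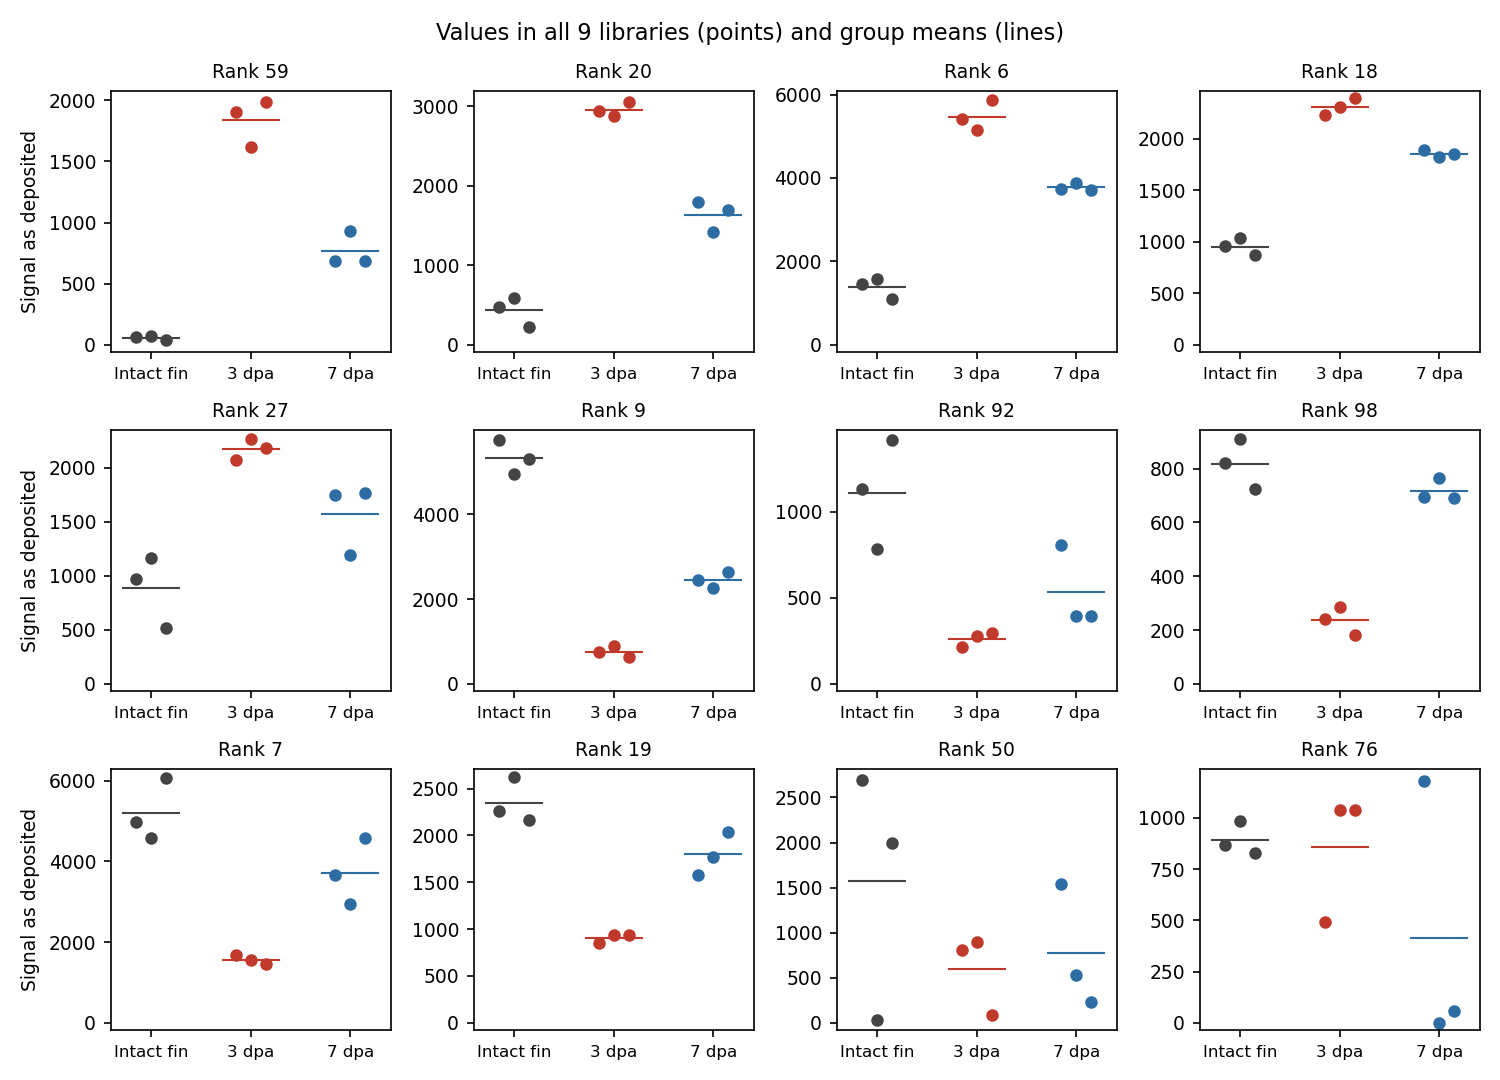
Deposited signal in all 9 libraries (points) with group means (lines) for the 5 largest rises (ranks 59, 20, 6, 18, 27) and 5 largest falls (ranks 9, 92, 98, 7, 19) at 3 dpa against intact fin, and for ranks 50 and 76; axes are linear and differ between panels. The 3 dpa libraries of the first 10 panels do not overlap the intact ones, while ranks 50 and 76 range widely within a group.

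The 10 most abundant transcripts differed among themselves. Rank 1 had 8611, 9442 and 8290 at 3 dpa, against 15632, 16214 and 16261 in intact fin, a log2 change of -0.87 ± 0.06 (SE, limma adjusted p = 5.654e-06). It was the most abundant transcript in every group, also where it was lowest. Rank 2 had 4322, 4546 and 4098 at 3 dpa, against 6954, 6408 and 7440 in intact fin, a log2 change of -0.68 ± 0.07 (SE, limma adjusted p = 6.326e-05). Ranks 4, 5, 8 and 10 had smaller falls that passed the test, of 0.63 for rank 4 down to 0.16 for rank 10 on the log2 scale. On leaving out 1 library, rank 5 lost its call without intact replicate 1, 3 dpa replicate 2 or 3 dpa replicate 3 (limma adjusted p between 0.06087 and 0.07504), and after quantile normalization its change reversed to 0.083 without passing. Rank 10 lost its call without intact replicate 1 or 3 or 3 dpa replicate 1 or 3 (limma adjusted p between 0.06919 and 0.1108). An equal mRNA total left rank 10 at -0.093 (limma adjusted p = 0.1344). Median-ratio scaling left rank 10 at -0.032 (limma adjusted p = 0.6215) and rank 5 at -0.29 (limma adjusted p = 0.08417). Quantile normalization also ended the calls of ranks 1, 4, 8 and 10, and for rank 1 it sets all libraries equal by construction. Rank 3 was the 1 transcript of these 10 that passed in no comparison. It had 5178, 5353 and 5060 at 3 dpa, against 6024, 5647 and 5556 in intact fin (limma adjusted p = 0.07177).

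At 7 dpa against intact fin, fewer of the set differed. Of the 100, 11 were higher, 28 lower and 61 did not pass, against 25.5% of all tested called, 12.4% higher and 13.2% lower. Against all tested, the share called lower in the set was above the background in this setting. Without limma's trend and robust settings 13 of the 100 were lower, against 12.8% of all tested. From the 2 groups alone 15 were lower, against 11.4%. Of ranks 101 to 200, 24 were higher and 16 lower, and of ranks 201 to 1000 35.5% were higher and 14.4% lower, a difference from the set that was not tested. Median-ratio scaling left 12 higher and 19 lower, quantile normalization 13 and 18, and leaving out intact replicate 1 left 10 and 12. Of all tested, 10.8%, 12.4% and 9.58% were lower in the same order of settings. The transcripts called higher numbered 3528 of 25001, 3303 of 25001 and 2661 of 24392 tested in that order. The libraries did not overlap for 12 higher and 44 lower transcripts, against 41.1% of all tested (18.7% higher, 22.4% lower). By at least 2-fold, 3 were higher and 2 lower, against 2.73% and 2.32% of all tested. The median log2 change was -0.17 in the set and -0.04 over all tested.

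The 7 dpa rises were led by ranks 59, 20 and 6, and rank 6 had 3747, 3891 and 3710 at 7 dpa, against 1460, 1589 and 1097 in intact fin. That was a log2 change of 1.47 ± 0.12 (SE, limma adjusted p = 0.0001269). Rank 51 had 861, 1183 and 1215 at 7 dpa, against 600, 553 and 493 in intact fin, with no overlap and a log2 change of 0.97 ± 0.14 (SE, limma adjusted p = 0.001483). Rank 18 had a log2 change of 0.96 ± 0.07 (SE, limma adjusted p = 6.843e-05). Among the falls, rank 7 had 3653, 2943 and 4575 at 7 dpa, against 4968, 4590 and 6075 in intact fin. Its groups lay next to each other, and the log2 change of -0.50 ± 0.16 had a limma adjusted p of 0.0471. Ranks 41, 99 and 19 were lower by 0.43, 0.41 and 0.39 on the log2 scale, without overlap of libraries. Rank 1 had 13947, 14294 and 13587 at 7 dpa, a log2 change of -0.20 ± 0.06 against intact fin (SE, limma adjusted p = 0.03419). Several of these small falls depended on single libraries or on the scaling. With an equal mRNA total, the limma adjusted p was 0.08524 for rank 1 and 0.05301 for rank 7, and with median-ratio scaling it was 0.09599 for rank 1 and 0.06467 for rank 7. Rank 1 lost its call without any of the 3 intact libraries, 3 dpa replicate 1, or 7 dpa replicate 1 or 3 (limma adjusted p between 0.05781 and 0.09681), and rank 7 without any library other than intact replicate 2 and 7 dpa replicate 3 (0.06243 to 0.1408). Rank 19 lost it without intact replicate 1 or 2 or 7 dpa replicate 1 or 2 (limma adjusted p between 0.0533 and 0.0831), and rank 41 without intact replicate 2 or 7 dpa replicate 1 or 3 (0.07235 to 0.07319). A rise was unsteady too: rank 27 had a log2 change of 0.89 (limma adjusted p = 0.04271). Rank 27 lost its call on leaving out any 1 library except intact replicate 2 or 7 dpa replicate 2 (limma adjusted p between 0.05916 and 0.1156). Its call was also lost with no filter (limma adjusted p = 0.08539) and from the 2 groups alone (0.08364). This comparison and the one at 3 dpa share the intact fin libraries, so their changes are not independent.

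Between 7 dpa and 3 dpa directly, 15 of the set were higher at 7 dpa, 5 were lower and 80 did not pass. Over all tested, 21.7% were called, 11.2% higher and 10.4% lower. In neighbouring levels more were called, with 48% of ranks 101 to 200, 52.8% of ranks 201 to 1000 and 40.2% of ranks 1001 to 5000, against 20 of the 100 here. With an equal total of the other transcripts 25 were higher and 5 lower. Under median-ratio scaling 12 were higher and 10 lower, under quantile normalization 12 and 9, and without 3 dpa replicate 3 they were 9 and 3. Of all tested, 22.1%, 22.2%, 20.4% and 13.1% were called in the order of these settings. The shares called lower were 9.11%, 12.9%, 10.1% and 6.48%. Libraries did not overlap for 27 higher and 11 lower transcripts of the set, against 41% of all tested (22.1% higher, 18.8% lower). By at least 2-fold, 3 were higher and 1 lower, against 1.53% and 1.82% of all tested. The median log2 change was 0.10 in the set and 0.04 over all tested.

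Rank 9 rose most between these stages, with 2439, 2262 and 2630 at 7 dpa against 762, 884 and 631 at 3 dpa and a log2 change of 1.70 ± 0.12 (SE, limma adjusted p = 0.0001573). Rank 98 had 694, 764 and 689 at 7 dpa against 239, 286 and 181 at 3 dpa, a log2 change of 1.62 ± 0.15 (SE, limma adjusted p = 0.000327). The 7 dpa libraries of rank 98 overlapped those of intact fin, from which it did not differ beyond the spread (limma adjusted p = 0.4148). Rank 7 was higher by 1.23 ± 0.16, rank 19 by 0.98 ± 0.11 and rank 65 by 0.82 ± 0.09 on the log2 scale (SE). Rank 65 had 931, 885 and 1052 at 7 dpa against 570, 545 and 509 at 3 dpa. The 5 transcripts that were lower at 7 dpa than at 3 dpa were ranks 59, 6, 64, 12 and 18. Rank 59 fell by 1.26 ± 0.19 on the log2 scale (SE, limma adjusted p = 0.002083), and the other 4 by 0.53 to 0.32. Without 3 dpa replicate 3, ranks 6 and 18 no longer passed (limma adjusted p = 0.06162 and 0.05206), nor did rank 6 without 7 dpa replicate 3 (0.0517). All 5 were still higher at 7 dpa than in intact fin.

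Across the 3 groups, the 7 dpa mean lay between the other means for 84 of the set, against 64.3% of all tested. The order intact fin above 7 dpa above 3 dpa held for 71 of the set and 36.8% of all tested. The opposite order, 3 dpa above 7 dpa above intact fin, held for 13 of the set and 27.4% of all tested. These orders use deposited means without a size cut, and 80 of the set did not pass between 7 dpa and 3 dpa. The mRNA total was 433478 ± 8440 in the intact fins, 420474 ± 12120 at 7 dpa, and 413457 ± 4527 at 3 dpa (SD, n = 3 each). The set's median log2 change at 7 dpa against 3 dpa was 0.098 as deposited. It was 0.026 with median-ratio scaling, 0.038 with quantile normalization, 0.074 with equal totals and 0.145 with an equal total of the other transcripts.

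Ranks within the set shifted by differing amounts, and a few shifted far. At 3 dpa against intact fin, 31 transcripts stood nearer the top by group mean, 66 farther from it and 3 at the same rank. The median size of the shift was 9 ranks, 45 transcripts shifted by at least 10 ranks, and 11 shifted by 50 ranks or more. Over the 3 replicates of a group, a transcript's rank spanned a median of 5.5 ranks in the intact fins, 5 at 3 dpa, and 6.5 at 7 dpa. For 62 transcripts the ranks in single libraries did not overlap between 3 dpa and intact fin, with 19 nearer the top at 3 dpa and 43 farther from it. The same held for 58.5% of all tested, 28.1% nearer the top and 30.4% farther from it, so the total in the set was near the background. At 7 dpa against intact fin the median shift was 6 ranks, and at 7 dpa against 3 dpa it was 4.

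Ranks 59, 20 and 51 climbed most at 3 dpa against intact fin. Rank 59 stood 691 ranks nearer the top, rank 20 stood at 8 at 3 dpa against 127 in intact fin, and rank 51 at 32 at 3 dpa against 110 in intact fin. Ranks 92, 98 and 50 dropped most. Rank 92 stood at 171 at 3 dpa against 42 in intact fin, rank 98 at 187 at 3 dpa against 75 in intact fin, and rank 50 at 94 at 3 dpa against 26 in intact fin. In single libraries rank 50 stood at 11 to 1575 in intact fin and at 58 to 575 at 3 dpa, so its drop rests on single libraries. Despite these moves, 6 transcripts were among the top 10 of all 9 libraries and 79 were among the top 100 of all 9 libraries. The top 100 of 3 dpa and of intact fin, each ranked by its own mean, shared 84 transcripts.

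**Figure D5:**
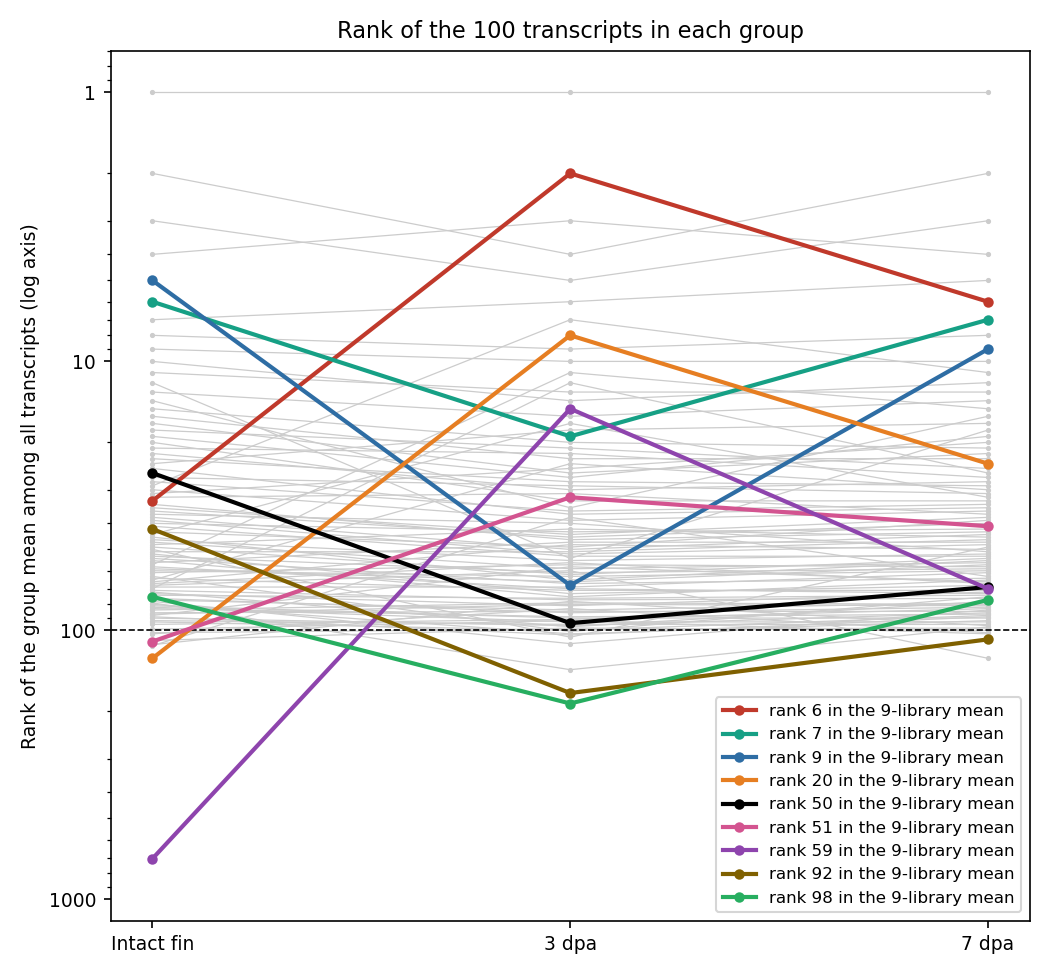
Rank of the group mean among all transcripts of the table (log axis, rank 1 at the top) for each of the 100 transcripts by group; each line is 1 transcript, 9 are coloured, and the dashed line marks rank 100. Rank 59 stood at 706 in the intact fins, 15 at 3 dpa, and 70 at 7 dpa, and rank 9 at 5 in the intact fins, 68 at 3 dpa, and 9 at 7 dpa.

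Replicates of a group lay close together for most of the set. In 88 of the 100, the highest and lowest replicates differed by less than 1.5-fold within each group. The median coefficient of variation over replicates was 5.81% in the intact fins, 4.80% at 3 dpa, and 8.28% at 7 dpa. Single libraries were often the lowest of their group: intact replicate 3 for 74 of the 100, 3 dpa replicate 3 for 64 and 7 dpa replicate 2 for 78. Each of these libraries also had the lowest mRNA total of its group (425050, 408532 and 406536 in that order). These totals include the set itself, and the set's share was also the lowest of its group there (36.26%, 31.06% and 34.39%). The part of the totals in these counts was not tested. In the set, 25 transcripts passed the test in no comparison, against 46.7% of all tested. Leaving out ranks 50 and 76, their largest log2 change in any comparison was 0.26. Rank 46, for example, had 1066, 976 and 1010 in intact fin, 1079, 1020 and 1054 at 3 dpa, and 1067, 912 and 1049 at 7 dpa.

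Ranks 50 and 76 varied at least 10-fold within a group and are the exceptions. Rank 50 had 2688, 30.0 and 1990 in intact fin, 804, 899 and 83.0 at 3 dpa, and 1541, 536 and 237 at 7 dpa. The groups overlapped throughout, the SE of a log2 change was 1.66, and its rank shifts rest on single libraries. Rank 76 had 866, 984 and 831 in intact fin, 495, 1037 and 1039 at 3 dpa, and 1182, 0 and 59.4 at 7 dpa. The value of 0 stands in replicate 2 of 7 dpa, and no change of rank 76 passed the test (SE 1.99). Among the other 98, the widest range within a group was 2.601-fold.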

How the data were processed

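Zebrafish caudal fin RNA was measured in 9 libraries, grouped by the time in the labels. The authors deposited 1 signal per mRNA transcript and library with 2 decimals. The numbers are fractional, and no header or label says whether FPKM, TPM or another scale was used, so depth and its counting error are unknown. The submitters' processing notes name RSEM, edgeR, cutadapt and TopHat2 (2.0.3.12) without saying what each did, and a human build, hg38. No coordinates were used. The lncRNA and circRNA tables were not used here.

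Shares are percent of a library's summed signal, and ranks order group means. All 9 libraries entered 1 limma 3.58.1 model (R 4.3.3, trend and robust settings) on log2(signal + 1), without covariates. Transcripts with a signal of at least 1 in at least 3 libraries (25001) were tested, and p-values were Benjamini-Hochberg adjusted over all of them at 0.05. Log2(signal + 1) understates changes of low transcripts. Transcripts of 1 gene can share reads. The limma fit was tested on simulated data for the comparison of 3 dpa against intact fin, with independent noise and few changed transcripts. In the deposited values many more were called (12499 of 25001), so that run checks the code and not these calls. Shares, ranks and counts were computed with Python 3.11.15. Exact permutation of 3 against 3 libraries cannot go below p = 0.1 and was not used.

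The members, lists and tests were chosen with earlier results of these data known. Named are the 10 most abundant, up to 5 called transcripts per direction and comparison with the largest non-overlapping change, the 3 that climbed and the 3 that dropped most in rank, and the threshold neighbours. The gene and marker lists matched 0 transcripts and were not tested. Rank 46 and ranks 50 and 76 as examples of spread, the fifth assembled transcript and the transcripts listed to complete a count were added after their values were seen. Rank 75 was named for its overlapping libraries, also after its values were seen.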

Additional observations from a re-analysis of the deposited data

Results flagged for a closer look

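The change after amputation differed between the 2 stages in the transcripts listed here, by limma's direct test of 7 dpa against 3 dpa at a Benjamini-Hochberg adjusted p under 0.05. Part of them were named for a large change in that same comparison, so their number is no result; in the whole set 20 of 100 passed, against 21.7% of all tested. The log2 change at 7 dpa against 3 dpa was 1.70 for rank 9, 1.62 for rank 98, 1.23 for rank 7, 0.98 for rank 19, 0.82 for rank 65, 0.76 for rank 99, 0.67 for rank 1, 0.58 for rank 5 and 0.52 for rank 2. It was -1.26 for rank 59, -0.53 for ranks 6 and 64, -0.37 for rank 12 and -0.32 for rank 18. The 3 dpa libraries enter both this comparison and that of 3 dpa against intact fin, with opposite sign, so opposite directions in the 2 comparisons are not independent.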

How the results depend on the processing

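Depth is unknown, and 3 libraries per group limit all calls. Of 50 named changes, 36 kept their call under every alternative tried; of 950 comparisons with an alternative, 75 no longer passed and 1 reversed, rank 5 at 3 dpa against intact fin, at 0.083 after quantile normalization. At 7 dpa against intact fin, the lower transcripts numbered 18 with no filter and 18 with quantile normalization. They numbered 15 from the 2 groups alone and 13 without trend and robust settings. Of all tested, 5.69%, 12.4%, 11.4% and 12.8% were lower in the same order of settings. In the last 2 settings 24 and 22 of the set were called in either direction. Of all tested, 21.6% and 24.5% were called there, so the set was near or below the background. Against 3 dpa, 8, 10 and 9 were lower at 7 dpa with equal totals, median-ratio scaling and quantile normalization. Of all tested, 11.2%, 12.9% and 10.1% were lower in that order. With an equal total of the other transcripts 25 were higher at 7 dpa, against 3245 of 25001 tested. At 3 dpa against intact fin, quantile normalization left 40 lower (24.8% of all tested), and a stricter filter 8169 of all transcripts called against 12499. Shares were 34.2% (intact fin), 30.1% (3 dpa) and 32.6% (7 dpa) with the most abundant transcript removed from set and total, 38.7% (intact fin), 33.5% (3 dpa) and 36.9% (7 dpa) over annotated IDs, and the intact share was 36.3% without ranks 50 and 76 (an alternative chosen after seeing the data). A set chosen by its lowest group mean held 30.7% at 3 dpa. Rank shifts from group medians were 10.5 (3 dpa against intact fin) and 6 (7 dpa against 3 dpa). The causes were not tested.

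Leaving out 1 library at a time, all transcripts called numbered 10433 to 12458 (3 dpa against intact fin), 4525 to 5912 (7 dpa against intact fin) and 3230 to 5380 (7 dpa against 3 dpa). In the set and in the same order of comparisons, 56 to 82, 22 to 36 and 12 to 26 were called, 11 to 12, 8 to 11 and 9 to 20 higher, and 45 to 71, 12 to 28 and 3 to 8 lower. Of all tested, 42.4 to 50.4%, 18.6 to 24% and 13.1 to 22.1% were called in that order. The shares called lower were 23.7 to 28.1%, 8.85 to 12.4% and 6.48 to 10.8%. Among the 24378 to 24701 tested, 4602 to 5516, 2297 to 2865 and 1636 to 2748 were higher. The set's share of the mRNA total ranged over 36.47 to 36.79% (intact fin), 31.27 to 31.80% (3 dpa) and 34.60 to 35.12% (7 dpa). Median rank shifts ranged over 8 to 9.5, 6 to 7 and 4 to 5.5, and shared top-100 members over 83 to 85, 88 to 90 and 87 to 89. At 7 dpa against intact fin, 12 were lower without intact replicate 1, 15 without intact replicate 2, 16 without 7 dpa replicate 2 and 18 without 7 dpa replicate 3. Of all tested, 9.58%, 10%, 9.06% and 11% were lower in the same order. At 7 dpa against 3 dpa, 12 were called, 9 higher and 3 lower, without 3 dpa replicate 3, and 8 were lower without 7 dpa replicate 1. Of all tested, 13.1% were called and 6.48% lower without 3 dpa replicate 3, and 8.97% were lower without 7 dpa replicate 1. The labels link same-numbered libraries only by that number. Their deviations correlated at -0.0230 to 0.0706, and whether they share an origin was not tested. With a replicate block, 70, 28 and 18 were called, 11, 9 and 13 higher and 59, 19 and 5 lower. Of all tested, 47.6%, 22.2% and 18.5% were then called, and 26.4%, 11.2% and 8.94% were lower.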

Other observations

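The mean over all libraries leaves out transcripts that reach the top 100 of a group. Ranked by a group's own mean, 8 transcripts outside the set entered the top 100 of intact fin, 8 that of 3 dpa and 4 that of 7 dpa, 18 transcripts in all, some in more than 1 group and some close to the boundary in every group. Rank 119 in the 9-library mean had a signal of 932 ± 71.1 in the intact fins, 94.7 ± 10.7 at 3 dpa, and 375 ± 19.98 at 7 dpa (SD, n = 3 each). Rank 105 had 160.8 ± 22.7 in the intact fins, 1059 ± 94.9 at 3 dpa, and 440.4 ± 64.2 at 7 dpa. Rank 112 entered at 7 dpa, with 484 ± 47.0 in the intact fins, 215 ± 37.6 at 3 dpa, and 835 ± 67.7 at 7 dpa. These 3 were named after their values were seen, and no test is given since their levels chose them.

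Other ways of choosing 100 abundant transcripts gave nearly the same members. The geometric mean over libraries kept 95 of the 100, the lowest group mean 94 and the median over libraries 98.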
